A study of Mus musculus with 6 samples.

Results

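The genes described here were 39 nuclear receptors and nuclear receptor coregulators, of a list that leaves out the sex steroid receptors, taken by their symbols from the table of log2 CPM (read counts scaled to a common library total, on the log2 scale) in medial amygdala (MeA) *Kiss1* cells of female mice. The table listed 37 of the 39 symbols among its 13886 genes, and the symbols not listed were *Ppara* and *Pparg*. Of the 37 listed, 26 coded for receptors and 11 for coregulators. The rule used names and not measured values, although the list was drawn up with earlier results of these data known.

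RNA-seq had been run on ribosome-bound RNA from Kiss1Cre+/Rpl22HA+/+ females, in which a Cre recombinase made in *Kiss1* cells switches the ribosomal protein RPL22 to a form with an HA tag, so that tagged ribosomes can be pulled down from punches of the MeA. In both groups the ovaries were removed (OVX) at an age of 8 weeks, and the females received estradiol (E2) for 4 days and then went without it for 7 days. The E2 group was then given E2 for 5 days and the OVX group was not, so the OVX libraries are from ovariectomized females after an earlier E2 exposure and not from females that never had E2. Each group had 3 libraries, each from a pool of 4 mice, and the p-values measure the spread between pools. Recombination by Cre is permanent, so any cell that once had the Cre keeps the tag. The authors did not sequence pull-downs from Cre-negative females, whose RNA integrity was low. Their RT-PCR did not detect *Kiss1* or *Cck* in these pull-downs.

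Nuclear receptors are transcription factors, many of which bind a small lipid-soluble ligand such as a steroid, thyroid hormone, retinoic acid or a fatty acid. They sit on DNA as single molecules, as pairs of one kind or as pairs with a retinoid X receptor. Coactivators and corepressors carry enzymes for histones to the bound receptor, and estrogen receptors in general can use some of the same coregulators. Such use was not measured in these cells.

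The libraries had scaled sizes of 28.1M to 34.2M reads. *Kiss1* (ENSMUSG00000115958, 1 of 2 gene models with this symbol), which defines the cells, was higher in all 3 E2 libraries than in all 3 OVX libraries (log2 difference 1.91, SE 0.26, adjusted p = 0.00475, limma), and *Esr1*, the gene for estrogen receptor alpha, was lower by the same measure (log2 difference -0.70, SE 0.12, adjusted p = 0.0189, limma). With 1 library left out, *Kiss1* passed in 6 of 6 fits and *Esr1* in 3 of 6, losing its call without OVX replicate 1, OVX replicate 3 or E2 replicate 2. Other genes of these neurons were also higher in all E2 than in all OVX libraries without passing the threshold. Among them were *Slc17a6* by 0.40, *Gad2* by 0.31 and *Cck* by 0.24 on the log2 scale. The whole marker list of the *Kiss1* neurons summed to between 962 and 1079 CPM in OVX and between 1124 and 1292 CPM in E2 libraries. *Cck*, at a mean of 9.09 log2 CPM, is the largest part of this sum. *Kiss1*, at 2.70, adds little to it, and *Esr1*, also on the list, was lower. Whether the listed genes are particular to *Kiss1* neurons was not tested. The part of this shift of the list in the values below was not tested either. The 6 neuron markers summed to between 5575 and 5952 CPM per library, but markers of other cells were also in every library. Astrocyte markers summed to between 658 and 940 CPM, oligodendrocyte lineage markers to between 1613 and 2494 CPM and microglia markers to between 110 and 145 CPM. Genes taken as markers of excitatory neurons of other forebrain regions, led by *Slc17a7*, summed to between 901 and 1171 CPM in OVX and between 698 and 899 CPM in E2 libraries. The paper lists *Slc17a7*, under the name *Vglut1*, among transcripts of MeA *Kiss1* cells, and the cells that gave these reads were not located here. Since each library is a bulk sample, fewer cells of a type and less RNA per cell cannot be told apart.

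All 37 listed genes had a CPM above 1 in all 6 libraries, but the authors had already limited the table to genes above a CPM minimum. Of the 37, 26 lay in the upper part of the table when its genes were divided at their median level. The median level of the 37 was 5.34 log2 CPM, against 4.76 over all genes. Per kilobase of the longest annotated transcript, *Thra*, the gene for thyroid hormone receptor alpha, was far above the others at 8.61 on the log2 scale of CPM per kilobase. *Nr1d1*, coding for the heme-binding clock repressor REV-ERB alpha, followed at 5.66, then *Rxrb* at 5.01, *Ncor1* at 4.83, *Nr2f2* at 4.78 and *Nr2f1* at 4.73. The step from *Thra* to *Nr1d1* was the widest in the order. The lowest on the same scale were *Nr1h3* at -0.40, *Ppargc1b* at 0.16, *Rarb* at 0.20 and *Nr6a1* at 0.27. With the mean length of the coding transcripts in place of the longest one, 8 of the 10 highest genes were still among the 10 highest. *Thra* stayed highest, but the order below it changed, with *Ncor1* at place 2, *Nr2f2* at 3, *Nr1d1* at 6 and *Rxrb* at 9.

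**Figure D1:**
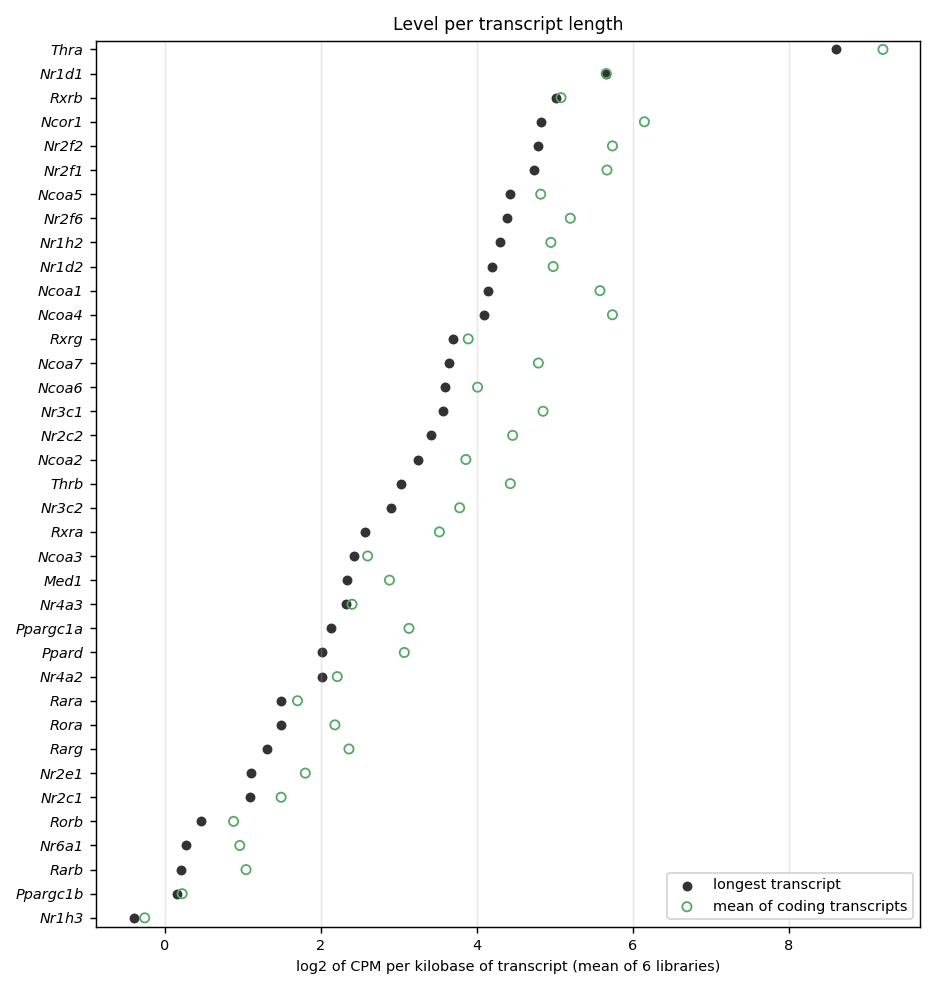
Level of each of the 37 genes as log2 of CPM per kilobase, averaged over 6 libraries, with the length of the longest transcript (filled) or the mean coding transcript (open). *Thra* is highest by either length, at 8.61 with the longest transcript, and *Nr1h3* is lowest at -0.40.

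In the comparison of E2 with OVX, 0 of the 37 genes passed an adjusted p under 0.05 (limma, adjusted over all 13886 genes), where 0.288% of all genes passed, and the lowest adjusted p was 0.264. Limma with voom weights also gave 0. At an unadjusted p under 0.05 there were 8 of the 37 (21.6%), beside 8.56% of all genes. Of these 8, 7 (18.9%) were lower with E2, beside 4.34% of all genes, and 1 was higher, beside 4.21%. The 3 OVX and 3 E2 libraries did not overlap for 7 genes (18.9%), beside 13.7% of all genes. In 6 of the 7 (16.2%) every E2 library was lower, beside 6.82% of all genes, and in 1 every E2 library was higher, beside 6.85%. The mean was lower with E2 for 31 of the 37 genes (83.8%), beside 48.9% of all genes, and the median log2 difference was -0.07, beside 0.00 over all genes. The mean was lower for 21 of 26 receptors, with a median of -0.06, and for 10 of 11 coregulators, with a median of -0.07.

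These counts depended on single libraries. The count of 31 was 23 without E2 replicate 2 and between 27 and 30 with any other library left out. The count of 8 at an unadjusted p was 3 without OVX replicate 1, 3 without OVX replicate 2, 4 without E2 replicate 1, 4 without E2 replicate 2, 10 without OVX replicate 3 and 9 without E2 replicate 3, and it was 3 in a fit with no mean-variance trend. With fewer libraries more genes can fail to overlap, and the 7 became 13 without OVX replicate 3 and 15 without E2 replicate 3. Relative to each gene's own mean, the median of the 37 was 0.053, 0.043 and 0.007 in OVX replicates 1, 2 and 3, and -0.038, -0.070 and 0.004 in E2 replicates 1, 2 and 3, on the log2 scale. E2 replicate 3 was thus about level with OVX replicate 3. The 37 genes also have long transcripts, with a median of 4663 nucleotides against 3516 over all genes. Over all genes in 4 bins by transcript length, the share with a lower mean with E2 was 45.4%, 47.8%, 49% and 53.6% from the shortest to the longest. In the same order, 3 of 4, 8 of 9, 6 of 8 and 14 of 16 of the 37 genes had a lower mean. These bins hold few of the 37 genes, all read in the same 6 libraries. The part of transcript length in the lower means was not tested.

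**Figure D2:**
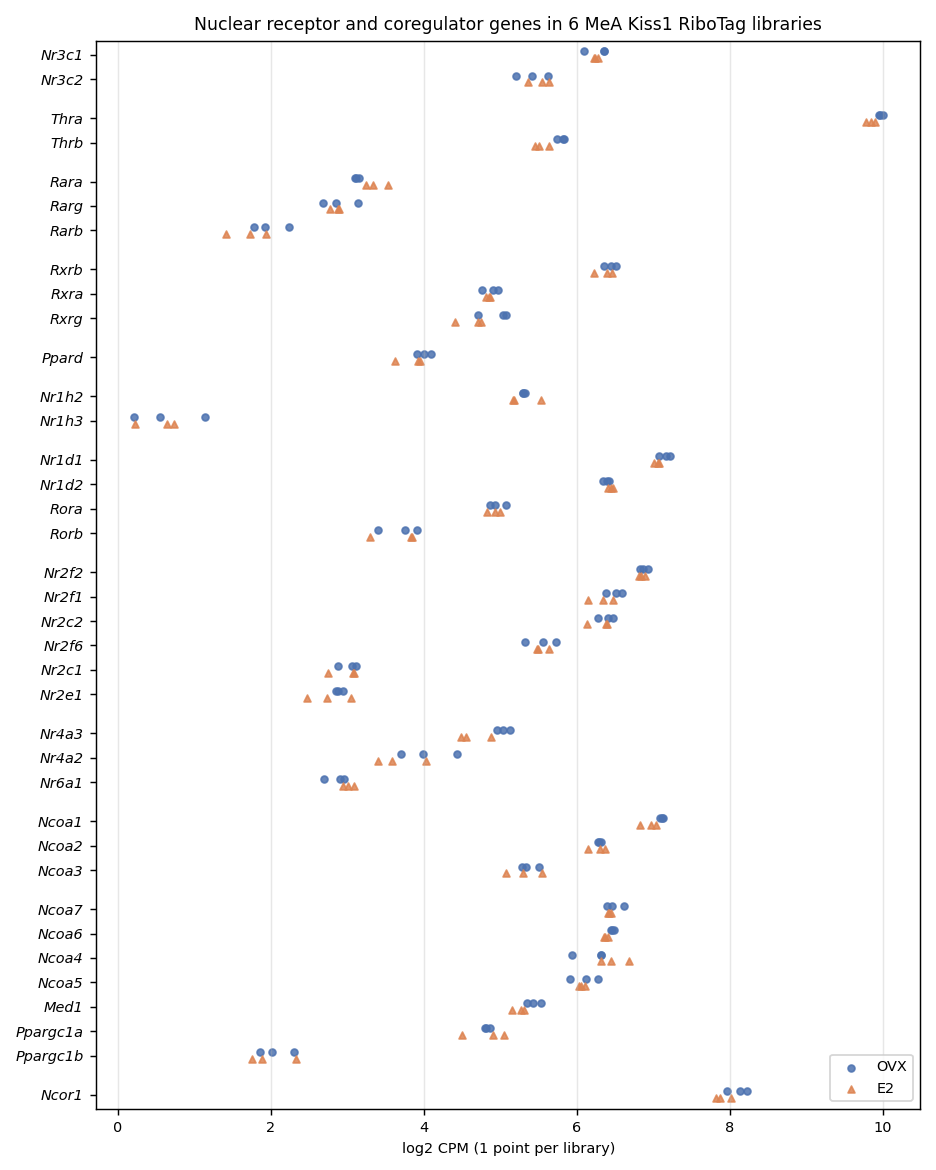
Log2 CPM of each gene in each of the 6 libraries, OVX and E2 in different colours and genes grouped by role. The gaps between treatments are small beside the range of levels between genes, from *Thra* at 9.78 to 10.003 to *Nr1h3* between 0.21 and 1.14.

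**Figure D3:**
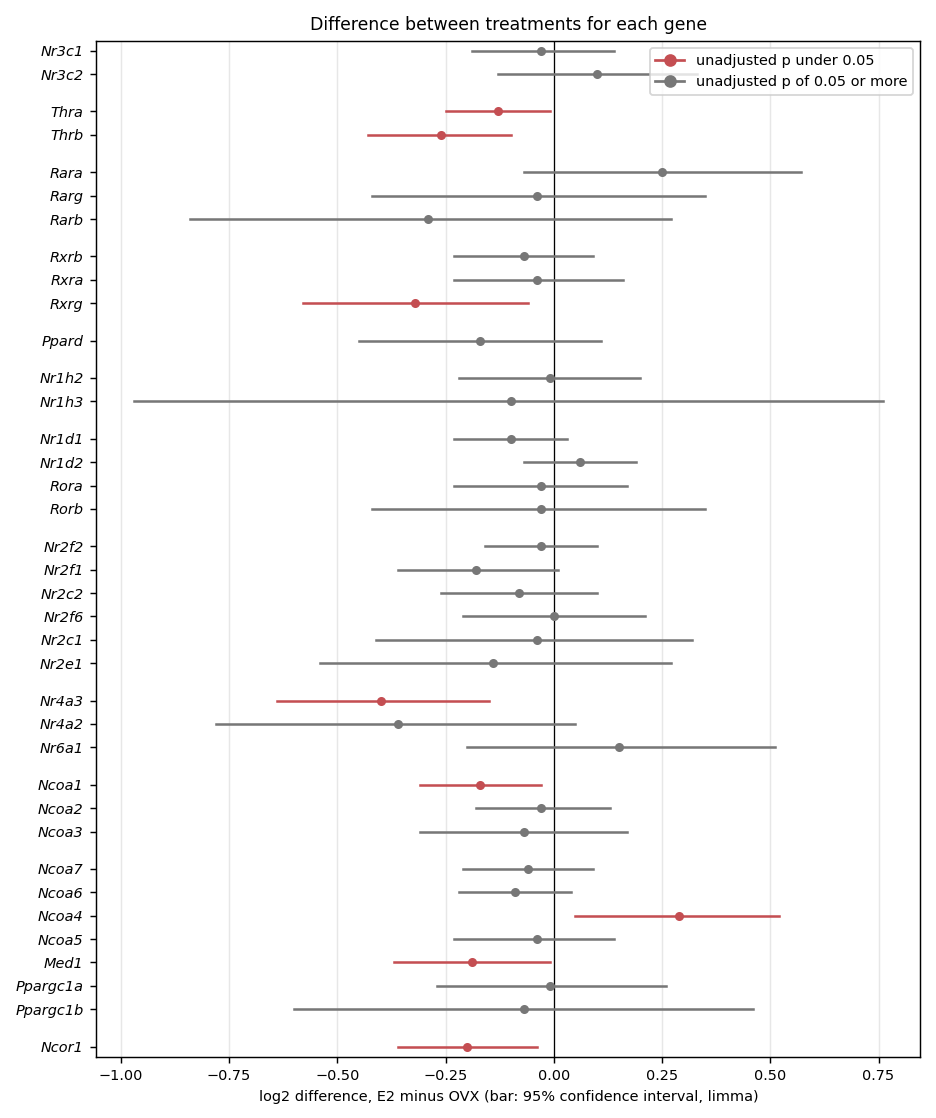
Log2 difference of E2 minus OVX for each gene with its 95% confidence interval from limma, red where the unadjusted p was under 0.05. Of the 37 points 31 lie below 0, and none of the genes passed the adjusted threshold.

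Thyroid hormone receptors mediate the response to triiodothyronine, and *Thra* and *Thrb* code for the alpha and the beta receptor. *Thra* (ENSMUSG00000058756, chr11:98740638-98769006, GRCm38, plus strand) was at 9.95, 9.96 and 10.003 log2 CPM in the OVX libraries and at 9.78, 9.85 and 9.90 in the E2 libraries. All E2 libraries lay below all OVX libraries, by a margin of hundredths between the nearest pair. The log2 difference was -0.13 (SE 0.05, 95% confidence interval -0.25 to -0.01, unadjusted p = 0.0366, adjusted p = 0.537, limma), which is 0.916 of the OVX level. *Thrb* (ENSMUSG00000021779, chr14:17660261-18038090, plus strand) was at 5.83, 5.82 and 5.74 log2 CPM in OVX and at 5.64, 5.45 and 5.51 in E2 libraries. Here too the groups were apart, and the difference was -0.26 (SE 0.08, 95% confidence interval -0.43 to -0.10, unadjusted p = 0.00447, adjusted p = 0.287, limma). The unadjusted p of *Thrb* stayed under 0.05 with each of the 6 libraries left out, with differences from -0.32 to -0.22, whereas that of *Thra* did so with 1 of 6 and was 0.124 with a replicate block. The exons of *Thra* and *Nr1d1* overlap tail to tail on opposite strands over 263 bases, 5.7% of the exonic bases of *Thra* and 8.547% of those of *Nr1d1*, and since the libraries were unstranded, reads from these bases cannot be assigned to one of them.

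Receptors of the NR4A group are orphan receptors that neurons induce within minutes of activity and cyclic AMP signaling, without a known classical ligand. *Nr4a3* (ENSMUSG00000028341, chr4:48045153-48086447, plus strand) was at 5.12, 4.95 and 5.03 log2 CPM in OVX and at 4.55, 4.48 and 4.88 in E2 libraries. The groups did not overlap, and E2 replicate 3 was the nearest to the OVX libraries. Its difference of -0.40 (SE 0.11, 95% confidence interval -0.64 to -0.15, unadjusted p = 0.00344, adjusted p = 0.264, limma) had the smallest p of the 37 genes. It lay between -0.52 and -0.32 when 1 library was left out, at an unadjusted p under 0.05 each time, and the smallest adjusted p in any of these fits was 0.0609. *Nr4a2* (ENSMUSG00000026826, chr2:57106830-57124003, minus strand) was at 4.43, 3.99 and 3.70 log2 CPM in OVX and at 3.59, 3.40 and 4.03 in E2 libraries. Here E2 replicate 3 was above 2 of the 3 OVX libraries, and the difference of -0.36 had an SE of 0.19 (adjusted p = 0.651, limma). *Nr6a1*, the germ cell nuclear factor gene, had a mean of 2.94 log2 CPM and a difference of 0.15 (SE 0.17, adjusted p = 0.871, limma).

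The promoters of the NR4A genes are shown for their matches to part of the cyclic AMP response element. In RefSeq promoters of GRCm38.p6, from 250 bases before to 50 after the transcription start, 32 of the 37 genes had an entry among 10765 genes of the table. The core of the cyclic AMP response element, TGACG on either strand, was in the promoters of 14 of the 32 genes and of 34.5% of all genes. At least 4 matches were found for *Nr4a2* and *Nr4a3* among the 32, and for 59 of all genes (0.548%). The cutoff of 4 equals the count of matches in each of these genes, so this share is no test of how unusual they are. The match of *Nr4a3* at -147 from the RefSeq start lies inside the gene by the coordinates given above, so it is not in the stretch printed here. Upstream stretches of both are written 5′ to 3′ on the strand of the gene with the matches in capitals. For *Nr4a2* these are 250 bases at chr2:57124004-57124253 on the minus strand with 4 matches. For *Nr4a3* they are 98 bases at chr4:48045055-48045152 on the plus strand with 3 matches.
Nr4a2: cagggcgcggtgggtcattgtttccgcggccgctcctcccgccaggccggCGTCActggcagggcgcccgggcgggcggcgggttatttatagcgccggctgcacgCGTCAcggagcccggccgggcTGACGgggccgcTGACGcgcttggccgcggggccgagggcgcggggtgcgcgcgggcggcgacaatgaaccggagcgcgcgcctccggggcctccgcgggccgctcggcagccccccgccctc
Nr4a3: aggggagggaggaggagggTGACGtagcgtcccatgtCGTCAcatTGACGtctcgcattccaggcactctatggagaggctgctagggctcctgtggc
A match is a run of letters and not a shown binding site.

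Of the other motifs searched on both strands, the full palindromic cyclic AMP response element TGACGTCA, which holds the core above, was in 2 of the 32 genes (*Nr2e1* and *Nr6a1*) and in 3.57% of all genes. The nuclear receptor hexamer AGGTCA was in 9 of the 32 (*Ncoa4*, *Ncoa6*, *Nr1d2*, *Nr6a1*, *Rara*, *Rarg*, *Rxra*, *Rxrg* and *Thrb*) and in 14.6% of all genes. The E-box CACGTG was in *Rara* and *Thrb* and in 11.5% of all genes, the palindrome ACANNNTGT in *Ncoa4* and 5.08% of all genes, and NNTAGGTCA, the REV-ERB and ROR form of the hexamer, in *Ncoa6* and 2.05% of all genes. The perfect estrogen response element GGTCANNNTGACC was in 0 of the 32 and in 0.0186% of all genes, and the direct repeat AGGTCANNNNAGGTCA was in none of the promoters searched. These counts cover a window of 300 bases and say nothing of sites elsewhere.

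Retinoic acid receptors bind DNA as partners of the retinoid X receptors. *Rara* (ENSMUSG00000037992, chr11:98927818-98974942, plus strand), coding for the alpha receptor, was at 3.12, 3.10 and 3.15 log2 CPM in OVX and at 3.24, 3.53 and 3.33 in E2 libraries. It was the only 1 of the 37 genes in which all E2 libraries were above all OVX libraries, with a difference of 0.25 (SE 0.15, 95% confidence interval -0.07 to 0.57, unadjusted p = 0.121, adjusted p = 0.711, limma). *Rarg* had a mean of 2.87 log2 CPM and a difference of -0.04 (SE 0.18). *Rarb*, the beta receptor gene, had a mean of 1.84 log2 CPM with libraries from 1.41 to 2.24 and a difference of -0.29 (SE 0.26), and 34.055% of its exonic bases overlap *Top2b* on the other strand. *Rarb* is shown for the direct repeat through which retinoic acid is known to induce it, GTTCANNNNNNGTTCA, present in its promoter and in those of 7 genes (0.065%) in all. The 30 bases at chr14:16575506-16575535 (GRCm38.p6, minus strand) have it in capitals.
Rarb: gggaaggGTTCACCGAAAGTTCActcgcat

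*Rxrg* (ENSMUSG00000015843, chr1:167598384-167639623, plus strand), the retinoid X receptor gamma gene, was at 5.04, 5.07 and 4.71 log2 CPM in OVX and at 4.41, 4.75 and 4.71 in E2 libraries. OVX replicate 3 was level with E2 replicate 3 and below E2 replicate 2, so the groups overlapped. The difference was -0.32 (SE 0.12, 95% confidence interval -0.58 to -0.06, unadjusted p = 0.0202, adjusted p = 0.454, limma). It lay between -0.43 and -0.21 with 1 library left out, with an unadjusted p under 0.05 in 3 of these 6 fits. *Rxrb*, the retinoid X receptor gene with the highest level per kilobase, was at 6.51, 6.35 and 6.44 log2 CPM in OVX and 6.23, 6.46 and 6.40 in E2 libraries, which overlapped (difference -0.07, SE 0.07). *Rxra* had a mean of 4.86 log2 CPM and a difference of -0.04 (SE 0.09).

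**Figure D4:**
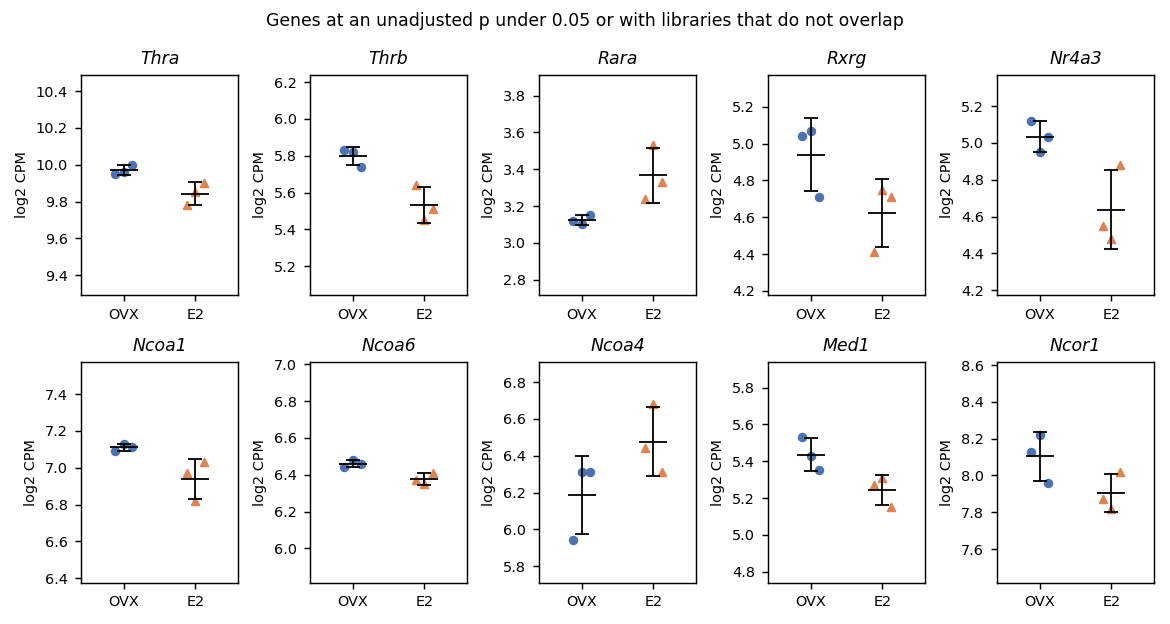
Log2 CPM in each library for the genes whose groups did not overlap or whose unadjusted p was under 0.05, 1 panel per gene with the same span of values the mean as a line and the SD as an error bar. The groups are apart except in *Rxrg*, *Ncoa4* and *Ncor1*, and in *Nr4a3* the highest E2 library, at 4.88, lies next to the lowest OVX library, at 4.95.

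The corticosteroid receptors are of interest in the amygdala as receptors of the stress hormone corticosterone. *Nr3c1* (ENSMUSG00000024431, chr18:39410545-39519421, minus strand), the glucocorticoid receptor gene, was at 6.09, 6.36 and 6.35 log2 CPM in OVX and 6.24, 6.27 and 6.23 in E2 libraries. The E2 libraries lay inside the OVX range, and the difference was -0.03 with a 95% confidence interval from -0.19 to 0.14. *Nr3c2*, the mineralocorticoid receptor gene, had a difference of 0.10 (SE 0.11) with overlapping groups. Of 15 genes known to respond to these receptors, 5 were higher in all E2 libraries than in all OVX libraries, beside 6.85% of all genes, with a median difference of 0.17. None of the 15 passed the adjusted threshold in limma and 6 had an unadjusted p under 0.05, beside 8.56% of all genes. Of the latter the smallest p was that of *Sult1a1*, a sulfotransferase (difference 1.08, adjusted p = 0.127, limma), at a low mean of 1.87 log2 CPM. Next were *Tsc22d3*, the glucocorticoid-induced leucine zipper (0.39, adjusted p = 0.253), *Klf9*, a transcription factor also induced by thyroid hormone (0.21, adjusted p = 0.372), and *Nfkbia*, the NF-kappa-B inhibitor (0.32, adjusted p = 0.397), all by limma. Of the 6, *Dusp1* was the 1 with a lower mean (-0.40, adjusted p = 0.534, limma).

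The other ligand-regulated receptors had overlapping groups. *Ppard*, a fatty acid sensor and the 1 listed gene of the peroxisome proliferator-activated receptors, was at 4.09, 4.00 and 3.91 log2 CPM in OVX and 3.92, 3.63 and 3.95 in E2 libraries, for a difference of -0.17 (SE 0.13). *Nr1h2*, the ubiquitous oxysterol receptor LXR beta, was at 5.29, 5.29 and 5.32 in OVX and 5.18, 5.16 and 5.53 in E2 libraries, so that E2 replicate 3 was the highest of all and the others the lowest. Its relative *Nr1h3* (LXR alpha) was the least abundant gene, with a mean of 0.59 log2 CPM, a range from 0.21 to 1.14 and an SE of 0.40 for a difference of -0.10. Its precision allows differences from -0.97 to 0.76.

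The REV-ERB repressors and ROR activators compete for the same DNA sites in the clock. *Nr1d1* (chr11:98767932-98775333, minus strand) was at 7.17, 7.22 and 7.07 log2 CPM in OVX and 7.06, 7.01 and 7.08 in E2 libraries. OVX replicate 3 lay just below E2 replicate 3, and the difference was -0.10 (SE 0.06, adjusted p = 0.697, limma). *Nr1d2*, coding for REV-ERB beta, had a mean of 6.41 log2 CPM and a difference of 0.06 (SE 0.06). *Rora* and *Rorb*, coding for the ROR activators, had means of 4.94 and 3.68 log2 CPM and a difference of -0.03 each.

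Among the orphan receptors, *Nr2f1* and *Nr2f2* code for the COUP-TF factors, which pattern the developing forebrain. *Nr2f2* was at 6.93, 6.83 and 6.87 log2 CPM in OVX and 6.81, 6.89 and 6.84 in E2 libraries, a difference of -0.03 (SE 0.06) with overlapping groups. *Nr2f1* was at 6.59, 6.51 and 6.38 in OVX and 6.34, 6.14 and 6.47 in E2 libraries, where E2 replicate 3 again lay among the OVX libraries (difference -0.18, SE 0.09, unadjusted p = 0.0564, limma). *Nr2f6* had a mean of 5.54 log2 CPM and a difference of 0.00 (SE 0.10), and 54.375% of its exonic bases overlap *Ocel1* on the other strand. *Nr2c1* and *Nr2c2*, coding for the testicular receptors TR2 and TR4, had means of 2.99 and 6.34 log2 CPM and differences of -0.04 (SE 0.17) and -0.08 (SE 0.08). For *Nr2c2*, 30.733% of the exonic bases overlap *Mrps25*. *Nr2e1*, the neural stem cell factor TLX, had a mean of 2.82 log2 CPM and a difference of -0.14 (SE 0.19).

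Among the coregulators, *Ncoa1*, *Ncoa2* and *Ncoa3* code for the steroid receptor coactivators SRC-1, SRC-2 and SRC-3, which bind the estrogen receptor directly when it holds its ligand. *Ncoa1* (ENSMUSG00000020647, chr12:4247362-4477182, minus strand) was at 7.09, 7.13 and 7.11 log2 CPM in OVX and at 6.97, 6.82 and 7.03 in E2 libraries. The OVX libraries lay close together and all above the E2 libraries. The difference was -0.17 (SE 0.06, 95% confidence interval -0.31 to -0.03, unadjusted p = 0.0212, adjusted p = 0.463, limma), and the unadjusted p was under 0.05 with 4 of the 6 libraries left out in turn. *Ncoa2* and *Ncoa3* had means of 6.28 and 5.34 log2 CPM and differences of -0.03 (SE 0.07) and -0.07 (SE 0.11).

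*Ncor1* (ENSMUSG00000018501, chr11:62316426-62458541, minus strand) codes for the corepressor that brings histone deacetylase to unliganded thyroid and retinoic acid receptors, and had the highest level per kilobase of the coregulators. It was at 8.13, 8.22 and 7.96 log2 CPM in OVX and at 7.87, 7.82 and 8.02 in E2 libraries. E2 replicate 3 was above OVX replicate 3, so the groups overlapped, and the difference was -0.20 (SE 0.07, 95% confidence interval -0.36 to -0.04, unadjusted p = 0.0172, adjusted p = 0.429, limma). The difference lay between -0.27 and -0.14 with 1 library left out, and the unadjusted p was under 0.05 in 2 of these 6 fits.

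*Ncoa4* (ENSMUSG00000056234, chr14:32159865-32179855, plus strand), which also carries ferritin to autophagy, was the 1 gene of the 8 at an unadjusted p under 0.05 that was higher with E2. It was at 5.94, 6.31 and 6.31 log2 CPM in OVX and at 6.44, 6.68 and 6.31 in E2 libraries. OVX replicate 1 was the lowest, and E2 replicate 3 was level with the other OVX libraries. The difference of 0.29 (SE 0.11, 95% confidence interval 0.05 to 0.52, unadjusted p = 0.0195, adjusted p = 0.448, limma) lay between 0.16 and 0.37 with 1 library left out. Its unadjusted p was under 0.05 in 4 of these 6 fits. *Med1* (ENSMUSG00000018160, chr11:98152154-98193293, minus strand), the Mediator subunit that contacts nuclear receptors, was at 5.53, 5.43 and 5.35 log2 CPM in OVX and at 5.27, 5.31 and 5.15 in E2 libraries, with no overlap. The difference was -0.19 (SE 0.08, unadjusted p = 0.0415, adjusted p = 0.56, limma). It lay between -0.23 and -0.14 with 1 library left out, with an unadjusted p under 0.05 in 2 of these 6 fits. *Ncoa6* (ENSMUSG00000038369, chr2:155390656-155473894, minus strand), a subunit of a histone methyltransferase complex, was at 6.44, 6.48 and 6.46 in OVX and at 6.37, 6.35 and 6.41 in E2 libraries. These did not overlap either, but the difference was -0.09 (SE 0.06, unadjusted p = 0.165, adjusted p = 0.757, limma). *Ncoa5*, highest of these other coactivators per kilobase of the longest transcript but below *Ncoa4* by the mean coding length, was at 6.12, 5.91 and 6.28 in OVX and 6.05, 6.03 and 6.11 in E2 libraries, which lay inside the OVX range. *Ncoa7* had a mean of 6.46 log2 CPM and a difference of -0.06 (SE 0.07). *Ppargc1a* and *Ppargc1b*, coding for the PGC-1 coactivators of mitochondrial genes, had means of 4.82 and 2.03 log2 CPM and differences of -0.01 (SE 0.12) and -0.07 (SE 0.25).

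The partners of the coregulators had medians between -0.04 and -0.01, beside -0.07 for the receptor and coregulator genes and 0.00 for all genes. The mean was lower with E2 for 6 of 10 corepressor complex partners, 11 of 15 coactivator partners and 18 of 31 other Mediator subunits, beside 48.9% of all genes. Of the corepressor complex partners (median -0.01) 0 had an unadjusted p under 0.05, beside 8.56% of all genes. Of the coactivator partners (median -0.04) 1 had, the acetyltransferase gene *Ep300* (-0.16, adjusted p = 0.552, limma). Of the Mediator subunits (median -0.03) 2 had, *Cdk19* (-0.23, adjusted p = 0.421) and *Med13* (0.21, adjusted p = 0.532). The adjusted threshold was passed by 0 genes of these lists in limma.

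Genes of the ligand pathways showed 1 call. *Cyp26b1*, which degrades retinoic acid, fell from 5.79, 5.49 and 5.31 log2 CPM in OVX to 4.71, 4.87 and 5.08 in E2 libraries (difference -0.65, SE 0.12, adjusted p = 0.0469, limma). It passed in 2 of the 6 fits with 1 library left out, those without OVX replicate 3 or E2 replicate 3, and in 7 of 11 other settings, with adjusted p from 0.0244 to 0.551. Of the other listed genes of retinoic acid, 12 in all with a median of -0.03, *Aldh1a1*, which makes retinoic acid, differed by 0.82 (adjusted p = 0.263, limma) and *Rbp4*, the retinol carrier, by -0.84 (adjusted p = 0.537, limma). *Rbp4* was low, with a mean of 1.04 log2 CPM and libraries from 0.10 to 1.91. Of 15 genes of thyroid hormone transport, deiodination and response (median -0.01), 0 passed. Of these, 2, among them *Klf9*, given above, had an unadjusted p under 0.05, beside 8.56% of all genes. Of 12 LXR target genes (median -0.00) 0 had. Of 17 PPAR and PGC-1 target genes (median -0.03) 3 had, among them *Fabp7* (0.52, adjusted p = 0.321) and *Pdk4* (-0.57, adjusted p = 0.463). Of 8 REV-ERB and ROR target genes (median 0.09) 1 had, *Npas2* (0.37, adjusted p = 0.346).

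Markers of other cells moved beside these values. All 8 markers of excitatory neurons of other forebrain regions had a lower mean with E2, beside 48.9% of all genes, with a median of -0.40. Of the 8, 5 had an unadjusted p under 0.05, beside 8.56% of all genes. The smallest p were those of *Slc17a7* at -0.42 (adjusted p = 0.174, limma), *Emx1* at -0.58, *Neurod6* at -0.54 and *Fezf2* at -0.37. Their summed level was lowest in E2 replicates 1 and 2, at 755 and 698 CPM, and at 899 CPM in E2 replicate 3, close to the 901 CPM of OVX replicate 3. All 7 choroid plexus markers also had a lower mean, with a median of -0.61, *Clic6* at -0.66 and *Kl* at -0.40, and with summed levels of 693 to 1084 CPM in OVX and 396 to 1023 CPM in E2 libraries. Of 8 oligodendrocyte lineage markers 7 had a higher mean, among them *Pdgfra* at 0.54 (adjusted p = 0.0838), *Mobp* at 0.32 and *Cspg4* at 0.30, and 7 of 8 astrocyte markers had a higher mean, with a median of 0.08 and *Gja1* at 0.18. The summed level of striatal neuron markers was 189 to 246 CPM in OVX and 199 to 234 CPM in E2 libraries, and that of endothelial and mural markers 166 to 312 and 194 to 255 CPM. Pituitary markers, of which 3 of 8 were listed, ranged from 6.35 to 1029 CPM in OVX and from 2.02 to 228 CPM in E2 libraries. The part of these cells in the differences of receptor and coregulator genes was not tested.

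**Figure D5:**
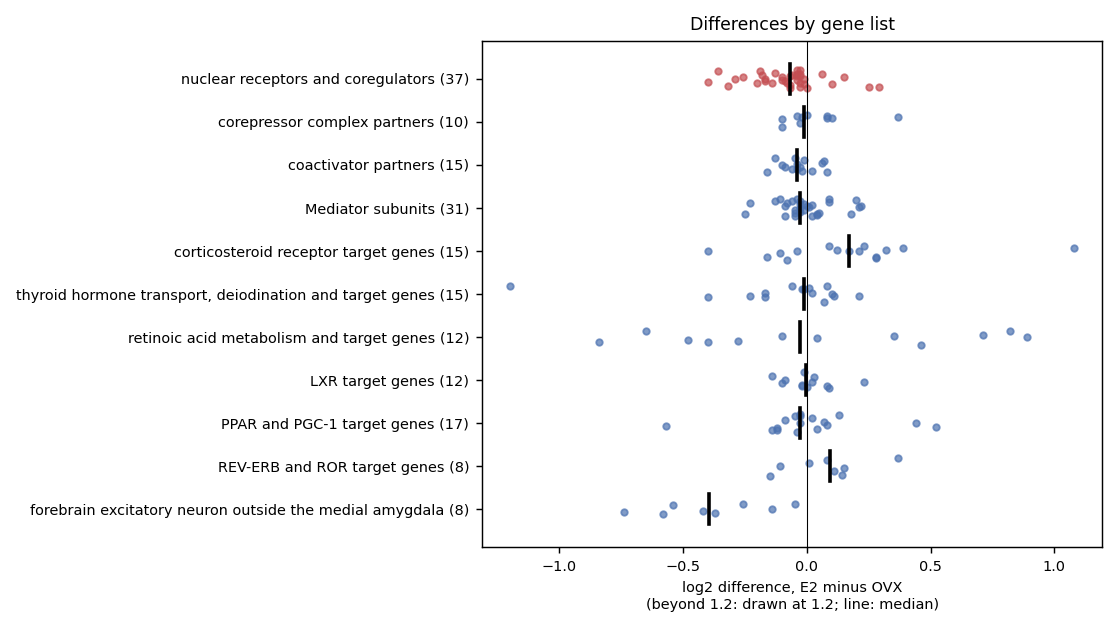
Log2 difference of E2 minus OVX for each gene of the receptor and coregulator set, of its partner and target lists and of the forebrain excitatory markers, with the median of each list as a black bar. The receptor and coregulator genes have a median of -0.07, the corticosteroid target genes 0.17 and the forebrain excitatory markers -0.40, and *Slc16a10* at -1.92 is drawn at the limit of the axis.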

How the data were processed

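Ribosome-bound RNA of MeA *Kiss1* cells had been sequenced from 3 OVX and 3 E2 pools, and groups were taken from the labels. The deposited log2 CPM values were made by the authors, who trimmed reads with Trimmomatic 0.38, aligned them with STAR 2.6.0a to GRCm38, quantified genes with RSEM, kept protein-coding genes above a CPM minimum and applied TMM scaling and voom. Libraries were unstranded. A deposited table of the authors' comparison (log2 fold changes, statistics and p-values) was not used.

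Here all 13886 genes were tested on the log2 CPM (limma 3.58.1, R 4.3.3), with eBayes following the mean-variance trend, treatment as the only term, 2-sided p and Benjamini-Hochberg adjustment over all genes, with an adjusted p under 0.05 as the threshold. Library sizes were computed from the lowest value of each library, taken as 0 reads plus the 0.5 that voom adds, and cover counting error only. The study's fit used voom weights, which were run here as an alternative on counts rebuilt in the same way. The other alternatives were no trend, sample quality weights, a robust prior, median centring, quantile normalization, other pseudocounts, filters on low values, a replicate block and each library left out. The pipeline was tested on simulated data. With 3 against 3 libraries an exact permutation p cannot be below 0.1. SEs of the log2 differences had a median of 0.107 over all genes and 0.099 over the 37.

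Positions, transcript lengths and overlaps came from GENCODE M21 (GRCm38) and promoters from RefSeq (GRCm38.p6). The members and lists were chosen with earlier results of these data known. Every member was named, with library values for those whose groups did not overlap, with an unadjusted p under 0.05 or with the highest level per kilobase of their role. *Nr4a2* and *Nr2f1* were given in the same way after their values were seen, and *Slc16a10* is named for its place in a plot. From the lists, genes past the threshold were named and up to 4 with an unadjusted p under 0.05, plus *Dusp1* after its value was seen. A few genes within the rule are not reported here. The alternatives for genes of the lists past the threshold were chosen after seeing the data.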

Additional observations from a re-analysis of the deposited data

How the results depend on the processing

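The count of 0 receptor and coregulator genes past the adjusted threshold held in every fit. The genes past it among all 13886 numbered 40, 0 without the mean-variance trend and 20 to 66 with 1 library left out. The 8 genes at an unadjusted p under 0.05 became 3 without the trend and 3 to 10 with 1 library left out, and the 7 without overlap became 8 to 15. The count with a lower mean, alternatives for which were chosen after seeing the data, was 30 to 32 in the other fits and 23 to 30 with 1 library left out. The cause of these shifts was not tested. Of 406 differences of single genes under other settings, 401 kept direction and call, and 5 changed sign: *Nr1h2* (0.008) and *Ppargc1a* (0.024) with sample quality weights, and *Nr2f6* with voom weights (-0.002), with quality weights (-0.003) and with median centring (-0.009). With 1 library left out, which leaves a group of 2 beside 3, 27 of 222 differences changed sign. The ranges were *Nr1h2* -0.128 to 0.055, *Nr1h3* -0.314 to 0.152, *Nr2c1* -0.112 to 0.068, *Nr2c2* -0.136 to 0.005, *Nr2f6* -0.108 to 0.098, *Nr3c1* -0.113 to 0.021, *Nr3c2* -0.004 to 0.201, *Rarg* -0.14 to 0.086, *Rxra* -0.095 to 0.011, *Rora* -0.077 to 0.026, *Rorb* -0.179 to 0.146, *Ncoa2* -0.078 to 0.040, *Ncoa3* -0.193 to 0.044, *Ncoa5* -0.137 to 0.046, *Ncoa7* -0.103 to 0.002, *Ppargc1a* -0.122 to 0.149 and *Ppargc1b* -0.238 to 0.054. None of the 8 genes was among these, but they were picked by their p in the same libraries, so this is no test of them.

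Same-numbered OVX and E2 libraries did not deviate together (correlations across genes, which are not independent, of -0.112, -0.156 and -0.0977), so the numbers were not taken to pair them. With a replicate block, 35 of all genes and 0 of the 37 passed the adjusted threshold, and 6 of the 37 had an unadjusted p under 0.05, those of *Thra* and *Med1* rising to 0.124 and 0.0594.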
